A study of Mus musculus with 7 samples.

Results

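The genes described here are 9 genes that act in the import, elongation, desaturation and activation of long-chain polyunsaturated fatty acids, namely Mfsd2a, Fabp5, Elovl2, Elovl4, Elovl5, Fads1, Fads2, Acsl6 and Agpat3. They were listed by symbol, each was read from its brightest probe set carrying 1 gene symbol, and all 9 were found among the 19938 genes that could be measured in this way. Expression was compared between 2 groups of samples from the retinal pigment epithelium (RPE), the pigmented epithelium that supports the photoreceptors. There were 3 samples of mice with the genotype Mfrp rd6 and 4 samples of wild-type (WT) mice, both on the C57Bl/6J background. The RPE was shaken off opened eyecups and pelleted, and each sample was hybridised to 1 whole-transcript array. The rd6 allele is a recessive mutation of Mfrp, a membrane protein gene of the RPE, and mutant mice develop a retinal degeneration. The sources give 2 accounts of age. The age field has 12 weeks for the 3 Mfrp rd6 samples and 8 weeks for the 4 wild-type samples, and under that account age and genotype cannot be told apart. The protocol text has 12 weeks for Mfrp rd6 replicate 1 alone. The labels do not say whether replicates came from separate animals or from pools of animals. The p-values therefore weigh the group differences only against the scatter among these samples, and that scatter could be technical.

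Docosahexaenoic acid (DHA) is the main polyunsaturated fatty acid of photoreceptor outer segment membranes. The RPE takes DHA up from the blood, returns DHA from the outer segments that it engulfs to the photoreceptors, and can make long-chain polyunsaturated fatty acids from shorter dietary ones. In that synthesis desaturases and elongases act in turn, the product is activated to a coenzyme A ester, and acyltransferases place it in phospholipids.

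All values are log2 values from RMA, a method that evens out the arrays and summarises the probes of a set, so a difference of 1 is a 2-fold change. Every sample carried the transcripts of the RPE. The mean of 12 RPE markers was 11.60 to 11.69 in Mfrp rd6 and 11.64 to 11.79 in wild type, with Rpe65 at 12.64 in Mfrp rd6 and 12.87 in wild type. Of the 12 markers 1 fell and 0 rose, the lower one being the retinol acyltransferase Lrat (-0.40, limma adjusted p = 0.0277). The samples also held other tissue, since surface epithelium markers were bright in both groups (mean of 11 markers 10.80 to 10.90 in Mfrp rd6 and 10.93 to 11.05 in wild type). The probe set that covers Mfrp is shared with its neighbour C1qtnf5 and read 11.17 ± 0.07 (SD, n = 3) in Mfrp rd6 and 11.33 ± 0.12 (SD, n = 4) in wild type, and this does not test the genotype, because rd6 is known as a small deletion at a splice site. Between arrays, correlations over genes were 0.995 to 0.996 within Mfrp rd6, 0.994 to 0.997 within wild type and 0.990 to 0.994 across the groups.

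Transcripts of Mfsd2a and Elovl2 fell in the Mfrp rd6 samples, and those of Elovl5 and Agpat3 were close to the wild-type level. Of the 9 genes, 2 were lower and 0 were higher at a limma p-value below 0.05 after Benjamini-Hochberg adjustment over all genes. Over all 19938 genes, 0.813% were lower, 1.34% were higher and 2.15% changed in either direction by the same rule. At an unadjusted limma p below 0.05, 6 of the 9 genes were lower and 0 were higher, where 9.37% of all genes were lower and 5.98% were higher. In the same 6 genes, Mfsd2a, Elovl2, Elovl4, Fads1, Fads2 and Acsl6, every Mfrp rd6 array lay below every wild-type array, as in 9.82% of all genes. The difference was negative in 8 of the 9 genes. Their median difference was -0.23, while the median of all genes was -0.02. In tissue samples of this kind, fewer cells of a type and less RNA per cell cannot be told apart. The 9 genes all had means above the median of all genes (7.12), so none lay near the floor of the arrays, where RMA compresses differences. The genes that fell were dimmer (means over all arrays 8.24 for Elovl2 and 9.32 for Mfsd2a) than Elovl5 (10.76) or Fads2 (11.62). Fabp5, at 9.13, was also dim and did not pass. Whether differences are compressed at the bright end, where several RPE markers also lie, was not tested. The shares over all genes include dim genes and are not matched to the level of the 9 genes. With only the 9969 genes above that median tested, 302 were lower and 214 higher by adjusted p in limma. Of the 9 genes, 3 were lower in that setting.

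**Figure D1:**
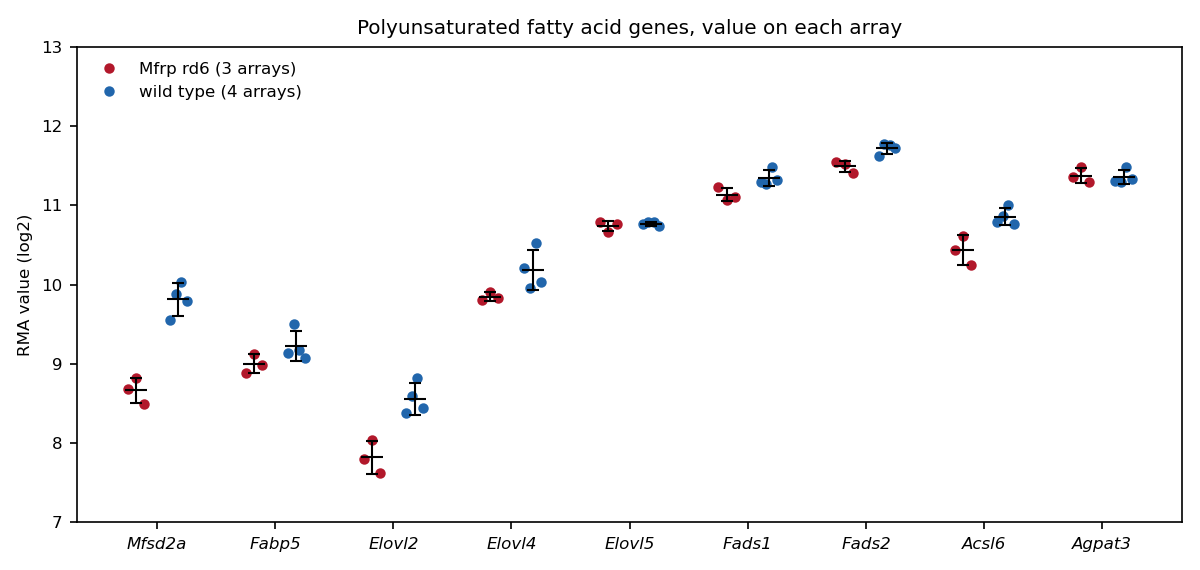
Log2 RMA value of each of the 9 genes (horizontal axis) on each array, with Mfrp rd6 left of wild type. Points are arrays, the horizontal bar is the group mean and the error bar 1 SD. Mfsd2a, Elovl2, Elovl4, Fads1, Fads2 and Acsl6 have no overlap between the groups, and Mfsd2a has the widest gap.

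Mfsd2a encodes the sodium-dependent carrier that brings DHA into cells as lysophosphatidylcholine. In mice it serves the endothelium of the blood-brain barrier and is also found in the RPE. Mfsd2a read 8.68, 8.82 and 8.50 in Mfrp rd6 replicates 1 to 3, against 9.55, 9.88, 10.04 and 9.79 in wild-type replicates 1 to 4. The highest Mfrp rd6 array was well below the lowest wild-type array. The group means were 8.67 ± 0.16 (SD, n = 3) in Mfrp rd6 and 9.82 ± 0.20 (SD, n = 4) in wild type. The difference was -1.15 (SE 0.12, 95% confidence interval -1.42 to -0.88, limma adjusted p = 0.00114), a level 2.22-fold lower in Mfrp rd6. Among the 19938 genes only 9 had a more negative difference. Mfsd2a passed in all 17 alternatives tried, with differences of -1.24 to -1.07. Without Mfrp rd6 replicate 1, which under the protocol text leaves samples of equal age, the Mfsd2a difference was -1.16 (limma adjusted p = 0.00752).

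Elovl2 encodes the elongase that acts on polyunsaturated fatty acids of intermediate length on the way to DHA. Elovl2 read 7.80, 8.04 and 7.62 in Mfrp rd6 replicates 1 to 3, against 8.38, 8.59, 8.82 and 8.44 in wild-type replicates 1 to 4. The groups did not overlap, and the smallest gap lay between Mfrp rd6 replicate 2 and wild-type replicate 1. The means were 7.82 ± 0.21 (SD, n = 3) in Mfrp rd6 and 8.56 ± 0.20 (SD, n = 4) in wild type. The difference was -0.74 (SE 0.13, 95% confidence interval -1.02 to -0.45, limma adjusted p = 0.018), a level 1.67-fold lower in Mfrp rd6. Elovl2 did not pass without Mfrp rd6 replicate 1 (-0.73, limma adjusted p = 0.0699) or without Mfrp rd6 replicate 3 (-0.64, limma adjusted p = 0.0621).

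Promoters are shown for these 2 genes because theirs are the transcripts that fell. RefSeq (GRCm38.p6) gave promoters for 7 of the 9 genes, all except Fads1 and Fabp5. The stretches below end next to the annotated gene and run 5′ to 3′ on the gene's strand, 244 bases of chr4:122961195-122961438 (minus strand) for Mfsd2a and 250 bases of chr13:41220404-41220653 (minus strand) for Elovl2. Capitals mark matches on either strand to any of 7 short motifs, none of which overlapped another match.
Mfsd2a: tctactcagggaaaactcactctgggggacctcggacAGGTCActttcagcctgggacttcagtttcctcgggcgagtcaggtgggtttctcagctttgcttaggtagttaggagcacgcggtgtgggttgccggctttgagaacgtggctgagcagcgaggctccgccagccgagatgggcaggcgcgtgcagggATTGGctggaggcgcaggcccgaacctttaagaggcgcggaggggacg
Elovl2: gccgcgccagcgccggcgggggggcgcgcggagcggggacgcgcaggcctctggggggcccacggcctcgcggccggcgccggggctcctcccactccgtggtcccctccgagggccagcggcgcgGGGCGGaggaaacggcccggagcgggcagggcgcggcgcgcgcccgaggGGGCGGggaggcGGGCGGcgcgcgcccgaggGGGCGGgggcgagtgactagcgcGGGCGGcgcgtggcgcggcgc

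The Mfsd2a stretch held 1 nuclear receptor motif (AGGTCA) and 1 CCAAT box, which stands on the other strand. The Elovl2 stretch held 5 GC boxes (GGGCGG) and no other motif of the 7. At least 1 GC box occurs in 32.7% of all 32851 RefSeq windows of 250 bases. The share is 33.8% for the CCAAT box and 14.0% for the nuclear receptor motif, so a single match to any of them is not rare. How often a window holds 5 GC boxes was not counted. The other motifs searched were the sterol regulatory element TCACNCCAC (1.05% of windows), the E-box CACGTG (6.02%), its variant CATGTG (12.3%) and the OTX2 and CRX site TAATCC (6.25%). The sterol regulatory element and the OTX2 and CRX site had 0 matches in the 10 windows of the 7 genes, which says only that these letters are not in these windows. The E-box was matched in Elovl5 and its variant in Acsl6. The motifs of the printed stretches were found in other genes of the list as well. The GC box was matched in Acsl6, Elovl4 and Fads2, and the CCAAT box in Acsl6 and Elovl5. Acsl6 also had the nuclear receptor motif.

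The other elongases of the list did not pass the test. Elovl4 makes very long-chain polyunsaturated fatty acids in photoreceptors, and mutations of the human gene cause a macular dystrophy. Elovl4 read 9.81, 9.91 and 9.83 in Mfrp rd6, against 10.21, 9.96, 10.53 and 10.03 in wild type. The Mfrp rd6 arrays lay close together and just below the lowest wild-type array, and wild-type replicate 3 stood highest. The Elovl4 difference was -0.33 (95% confidence interval -0.61 to -0.05, limma adjusted p = 0.24). Elovl5, the elongase of shorter polyunsaturated fatty acids, read 10.79, 10.67 and 10.76 in Mfrp rd6, against 10.76, 10.79, 10.79 and 10.74 in wild type. Its groups overlapped and its difference was -0.03 (95% confidence interval -0.17 to 0.11, limma adjusted p = 0.884), an interval that leaves out a change of the size seen for Elovl2.

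Because Elovl4 is a photoreceptor gene, rod markers were read beside it. All 10 measured rod markers had a negative difference. By adjusted p in limma 0 of the 10 passed. At an unadjusted limma p below 0.05, 3 were lower and 0 higher, where 9.37% of all genes were lower and 5.98% higher. Their mean was 6.55, 6.87 and 6.90 in Mfrp rd6, against 7.17, 7.26, 8.01 and 6.78 in wild type. Wild-type replicate 3, the highest array for Elovl4, was also the highest for rods. The other arrays did not keep one order, since among wild-type arrays replicate 4 had the lowest rod mean and replicate 2 the lowest Elovl4. Without wild-type replicate 3 the Elovl4 difference was -0.22 (limma adjusted p = 0.322). Markers of inner retinal neurons averaged 7.56 to 7.67 in Mfrp rd6 and 7.65 to 8.05 in wild type. By adjusted p in limma 0 of these 10 passed, and at an unadjusted p below 0.05 there were 4 lower and 1 higher, beside the same shares of all genes. The most negative were Snap25 (-0.91, limma adjusted p = 0.204) and Nefl (-0.90, limma adjusted p = 0.182), picked out after their values were seen. The part of rod, neuronal and surface epithelium transcripts in the values of Elovl4 and the other genes was not tested.

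Both desaturases were slightly lower in the Mfrp rd6 samples without passing the test. Fads2 encodes the desaturase of the first step and Fads1 that of the later step, and both genes lie on chromosome 19. Fads2 read 11.55, 11.52 and 11.41 in Mfrp rd6, against 11.62, 11.78, 11.76 and 11.73 in wild type. The gap between the groups was narrow. The Fads2 difference was -0.23 (95% confidence interval -0.39 to -0.07, limma adjusted p = 0.164). Fads1 read 11.23, 11.07 and 11.11 in Mfrp rd6, against 11.30, 11.27, 11.49 and 11.32 in wild type. The Fads1 difference was -0.21 (95% confidence interval -0.39 to -0.03, limma adjusted p = 0.24), and here too the groups nearly touched.

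Acsl6, the acyl-CoA synthetase that retains DHA in mouse brain and retina, came closest to the threshold among the genes that did not pass. Acsl6 read 10.44, 10.62 and 10.25 in Mfrp rd6, against 10.79, 10.87, 11 and 10.77 in wild type. Every Mfrp rd6 array lay below every wild-type array. The Acsl6 difference was -0.42 (SE 0.10, 95% confidence interval -0.64 to -0.20, limma adjusted p = 0.0688), 1.34-fold lower in Mfrp rd6. Acsl6 passed in 3 of 17 alternatives, when only genes with a mean of at least 6 or above the median were tested (limma adjusted p = 0.0468 and 0.0354) and with a variance trend and robust moderation (limma adjusted p = 0.0162). Agpat3, an acyltransferase that places DHA in phospholipids of the mouse retina, read 11.36, 11.48 and 11.29 in Mfrp rd6, against 11.31, 11.30, 11.49 and 11.34 in wild type. The groups overlapped and the Agpat3 difference was 0.02 (95% confidence interval -0.16 to 0.19, limma adjusted p = 0.955).

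Fabp5, a cytosolic fatty acid-binding protein first known from the epidermis, had 2 probe sets. The brighter read 8.89, 9.13 and 8.99 in Mfrp rd6, against 9.14, 9.51, 9.17 and 9.08 in wild type. The groups overlapped, with wild-type replicate 2 above the rest. The Fabp5 difference was -0.22 (95% confidence interval -0.47 to 0.03, limma adjusted p = 0.385), and that of the dimmer probe set was -0.17. Without wild-type replicate 2 the Fabp5 difference was -0.13 (limma adjusted p = 0.551). The annotation gives both probe sets the same transcripts, and the mouse genome is known to carry near-identical copies of Fabp5, so the source of the signal is uncertain. Surface epithelium, a site of Fabp5 expression, had a marker mean of 10.85 in Mfrp rd6 and 10.99 in wild type. Its mean on every Mfrp rd6 array lay below that on every wild-type array. Of its 11 markers 0 passed by adjusted p in limma. At an unadjusted limma p below 0.05, 3 were lower and 0 higher, where 9.37% of all genes were lower and 5.98% higher. The part of surface epithelium in the Fabp5 values was not tested.

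Whether related genes changed unequally was tested with the log2 ratio of 2 genes within each array, for 6 pairs and with a permutation test, exact and two-sided, that allots the arrays to the groups in all 35 ways and can give no p below 0.0286. The pairs were chosen with the values of the genes known. The ratio of Elovl2 to Elovl5 was -2.92 ± 0.26 (SD, n = 3) in Mfrp rd6 and -2.21 ± 0.18 (SD, n = 4) in wild type, a difference of -0.71 (exact p = 0.0286). The ratio of Acsl6 to Agpat3 differed by -0.44 and that of Mfsd2a to Fabp5 by -0.93, each with the same exact p of 0.0286. In these 3 pairs all 3 Mfrp rd6 arrays lay below all 4 wild-type arrays. Adjusted over the 6 pairs, the exact p of each was 0.0572, so none passed at 0.05. Elovl5 and Agpat3 were brighter than the genes set over them, while Fabp5 was not brighter than Mfsd2a. The part of brightness in these ratios was not tested. The ratio of Elovl2 to Elovl4 differed by -0.41 (exact p = 0.0571, adjusted p = 0.0856) and that of Elovl4 to Elovl5 by -0.30 (exact p = 0.114, adjusted p = 0.137). The ratio of Fads1 to Fads2 was nearly equal in the groups, at -0.36 ± 0.08 (SD, n = 3) in Mfrp rd6 and -0.38 ± 0.11 (SD, n = 4) in wild type (exact p = 0.8).

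The arrays of one group differed among themselves in a shared pattern for Mfsd2a, Elovl2 and Acsl6. In the Mfrp rd6 samples, replicate 2 was the highest and replicate 3 the lowest for each of the 3 genes. In wild type, replicate 3 was the highest and replicate 2 the next for each. Agpat3, which did not pass, had the same order in Mfrp rd6 and the same highest wild-type array, and Elovl5 and Fads2 did not follow it. Several RPE markers had that order and highest array as well, as given below with the marker lists, so the pattern is not particular to these genes. As a measure of likeness, each gene was centred on its mean over the 7 arrays and the root mean square difference from the profile of Mfsd2a was taken. It was 0.21 for Elovl2 and 0.37 for Acsl6, and 0.44 to 0.59 for the remaining 6 genes. Since group differences enter this measure, genes with a like fall score as near.

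Among 413 named genes that passed the test, the 5 nearest to Mfsd2a were Rasgrp3, Vipr2, Cdhr1, Slco1c1 and Shisal1, with root mean square differences of 0.10 to 0.14. Rasgrp3, an exchange factor for Ras proteins, read 9.49, 9.64 and 9.24 in Mfrp rd6, against 10.34, 10.57, 10.71 and 10.29 in wild type. All 5 genes were chosen for their likeness, so that their arrays run in much the same order is no further result. Vipr2, a receptor for vasoactive intestinal peptide, differed by -1.01 (limma adjusted p = 0.00553). Cdhr1, a cadherin-related protein of photoreceptors, differed by -0.98 (limma adjusted p = 0.00567), beside the lower rod marker values, whose part in it was not tested. Shisal1 read 8.39, 8.81 and 8.05 in Mfrp rd6, against 9.18, 9.47, 9.57 and 9.46 in wild type (limma adjusted p = 0.014). Slco1c1, a carrier of thyroid hormone and organic anions, read 9.55, 9.90 and 9.22 in Mfrp rd6, against 10.51, 10.77, 10.69 and 10.77 in wild type (-1.13, limma adjusted p = 0.0039).

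**Figure D2:**
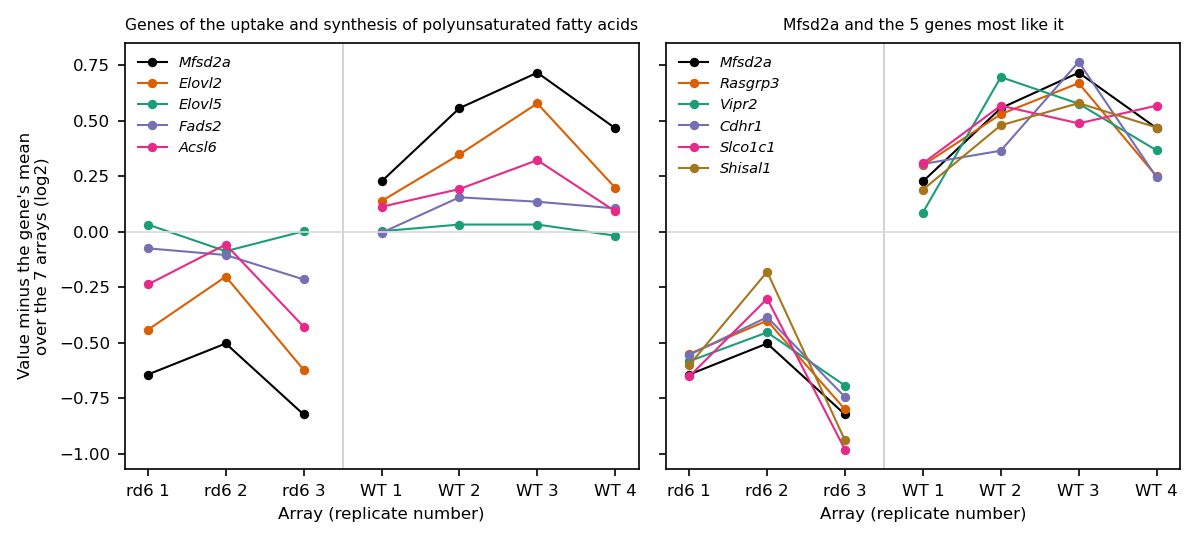
Log2 value minus the gene's mean over the 7 arrays (vertical axis) on each array (horizontal axis, 3 Mfrp rd6 arrays and then 4 wild-type arrays); lines join the points of a gene within a group and imply no order of replicates. On the left Mfsd2a, Elovl2 and Acsl6 all peak at Mfrp rd6 replicate 2 and wild-type replicate 3 within their groups while Elovl5 stays near 0, and on the right are Mfsd2a and the 5 genes nearest to it, at root mean square differences of 0.10 to 0.14.

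Mfsd2a and Slco1c1 are also known from the endothelium of the blood-brain barrier, so endothelial markers were read on the same arrays. Of 12 general endothelial markers 2 rose, 0 fell and all 12 had a positive difference, with a mean of 7.30 to 7.67 in Mfrp rd6 and 6.76 to 7.20 in wild type. At an unadjusted limma p below 0.05, 10 of the 12 were higher and 0 lower, where 5.98% of all genes were higher. The 2 that passed by adjusted p were Tek (0.55, limma adjusted p = 0.0389) and Plvap (0.57, limma adjusted p = 0.0459). Cldn5, a tight junction protein of barrier endothelium, read 7.35 in Mfrp rd6 and 7.02 in wild type (limma adjusted p = 0.168). Of 8 markers linked to a blood-neural barrier, 1 rose and 2 fell. The efflux pump Abcg2 rose by 0.43 (limma adjusted p = 0.014). Its means of 5.90 in Mfrp rd6 and 5.46 in wild type were low beside the median of all genes (7.12). Slco1c1 and the amino acid carrier Slc7a5 (-0.47, limma adjusted p = 0.0369) fell, and the glucose carrier Slc2a1 read 12.78 in Mfrp rd6 and 12.97 in wild type (limma adjusted p = 0.19). Several of these carriers are made by the RPE as well, so that list does not mark endothelium alone. The part of endothelial cells in the Mfsd2a values was not tested.

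Microglia and macrophage markers rose in the Mfrp rd6 samples, and skeletal muscle markers were all higher there, though few passed by adjusted p. Of 14 microglia and macrophage markers 11 rose and 0 fell, with means of 8.95, 9.39 and 8.83 in Mfrp rd6 and 7.29 to 7.41 in wild type. Of 12 skeletal muscle markers 2 rose and 0 fell, with means of 8.49, 8.77 and 7.89 in Mfrp rd6, against 6.80, 6.88, 7.88 and 7.01 in wild type. At an unadjusted limma p below 0.05 all 12 muscle markers were higher, where 5.98% of all genes were. The median difference of the muscle markers was 1.11. Within Mfrp rd6, replicate 2 was the highest and replicate 3 the lowest for both lists, as for Mfsd2a, Elovl2 and Acsl6, and wild-type replicate 3 was the highest of its group. The RPE marker mean was likewise highest on Mfrp rd6 replicate 2 (11.686, with replicate 1 at 11.685) and lowest on replicate 3 (11.60). Of the wild-type arrays replicate 3 had the highest RPE mean. Rpe65, Krt18, Rlbp1, Otx2, Rgr, Slc16a8 and Mitf each had this pattern, and Lrat had it with a tie in wild type. Dct, Ttr, Tyr and Pmel did not. The muscle means of Mfrp rd6 replicate 3 (7.89) and wild-type replicate 3 (7.88) nearly met. With Mfrp rd6 replicate 2 and wild-type replicate 3 both left out, the difference was -1.15 for Mfsd2a (limma adjusted p = 0.00584) and -0.76 for Elovl2 (limma adjusted p = 0.0201). The arrays that were kept had muscle means of 8.49 and 7.89 in Mfrp rd6, against 6.80, 6.88 and 7.01 in wild type. The groups were thus no closer in muscle markers, and the microglia and macrophage means still differed, so this setting does not bear on the part of these cells. Their part in the values of the 9 genes was not tested.

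**Figure D3:**
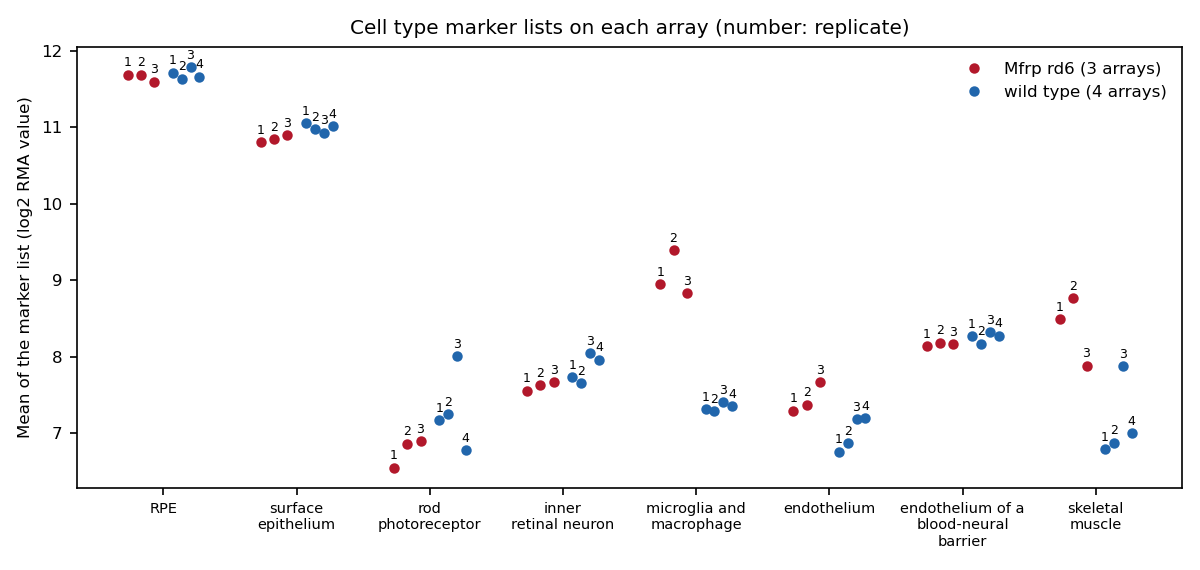
Mean log2 RMA value of 8 cell type marker lists (horizontal axis) on each array, Mfrp rd6 left of wild type, with the replicate number above each point. The RPE means lie between 11.60 and 11.79 on all arrays, while the microglia and macrophage means are 8.83 to 9.39 in Mfrp rd6 and 7.29 to 7.41 in wild type.

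In 8 lists of related genes, 83 of 90 entries were measured, 2 (2.41%) were lower and 0 higher by limma's adjusted p, set against 0.813% and 1.34% of all genes. At an unadjusted limma p below 0.05, 17 (20.5%) were lower and 4 (4.82%) higher, where the shares over all genes were 9.37% and 5.98%. In 18 of the 83 genes (21.7%) the Mfrp rd6 arrays lay below all wild-type arrays, against 9.82% of all genes. The median difference was -0.06 over the 83 genes and -0.02 over all genes. Here too the shares over all genes were not matched for level.

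The 2 genes that passed belong to the elongation cycle and to lipoprotein uptake. Hsd17b12 encodes the ketoacyl-CoA reductase that works with every elongase. Hsd17b12 read 9.56, 9.55 and 9.46 in Mfrp rd6, against 9.83, 9.92, 9.88 and 9.77 in wild type (-0.33, SE 0.07, limma adjusted p = 0.045). Lrp2, or megalin, is an endocytic receptor for lipoproteins and carrier proteins. Lrp2 read 8.59, 8.64 and 8.22 in Mfrp rd6, against 9.19, 8.95, 9.22 and 8.91 in wild type (-0.58, SE 0.12, limma adjusted p = 0.0426). The groups did not overlap in either gene, but both calls were lost whenever 1 array was left out, whichever array it was, with limma adjusted p of 0.0807 to 0.132 for Hsd17b12 and 0.0561 to 0.108 for Lrp2. The median of all 10 genes of the elongation cycle, Hsd17b12 included, was 0.04. Its other genes did not pass, with differences from -0.21 for the dehydratase Hacd3 to 0.18 for the dehydratase Hacd2. Elovl6, an elongase of saturated fatty acids, differed by -0.17 (limma adjusted p = 0.284), with every Mfrp rd6 array below every wild-type array.

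The further desaturases, synthetases and acyltransferases held 0 genes past the threshold in limma. Of 5 desaturases 0 had an unadjusted p below 0.05, with differences of -0.11 for Scd2, a stearoyl-CoA desaturase, and 0.03 for Degs1, the desaturase of ceramide synthesis. Of 9 acyl-CoA synthetases and fatty acid transport proteins, 3 were lower at an unadjusted p below 0.05 and 0 higher. Their brightest members, Slc27a1 (0.01) and Slc27a4 (-0.18), are transport proteins that also activate fatty acids. Of 15 acyltransferases, 4 were lower at an unadjusted p below 0.05 and 0 higher. Their brightest members were the lysophospholipid acyltransferase Lpcat4 (-0.03) and the glycerol-phosphate acyltransferase Gpam (0.12).

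In the remaining lists 0 further genes passed in limma, whatever their role. Among 12 genes of the release and oxygenation of polyunsaturated fatty acids, 3 were lower at an unadjusted p below 0.05 and 0 higher, and the brightest were Ptgds, a prostaglandin D synthase (0.13), and the phospholipase Pla2g5 (-0.15). Among 8 peroxisomal genes, which carry out the last, shortening step of DHA synthesis, 1 was lower and 1 higher at that level, with Abcd3, a peroxisomal transporter, at -0.17 and the multifunctional enzyme Hsd17b4 at -0.04. Among 10 regulators of fatty acid genes, 2 were lower and 2 higher at that level, and the brightest were Insig1 (-0.10) and Scap (0.00). The lower ones were Srebf1 (-0.28) and Srebf2 (-0.24), and the higher ones Nr1h3 (0.19) and Mlxipl (0.31). In the carrier list, Adipor1, a receptor needed for DHA retention in the mouse retina, differed by -0.01, and the muscle fatty acid-binding protein Fabp3 read 6.41 in Mfrp rd6 and 5.85 in wild type (limma adjusted p = 0.12), beside the higher skeletal muscle markers of the Mfrp rd6 samples. Adipor1 and Fabp3, as well as Hacd2, Hacd3, Elovl6, Srebf1, Srebf2, Nr1h3 and Mlxipl, were picked out after their values were seen.

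**Figure D4:**
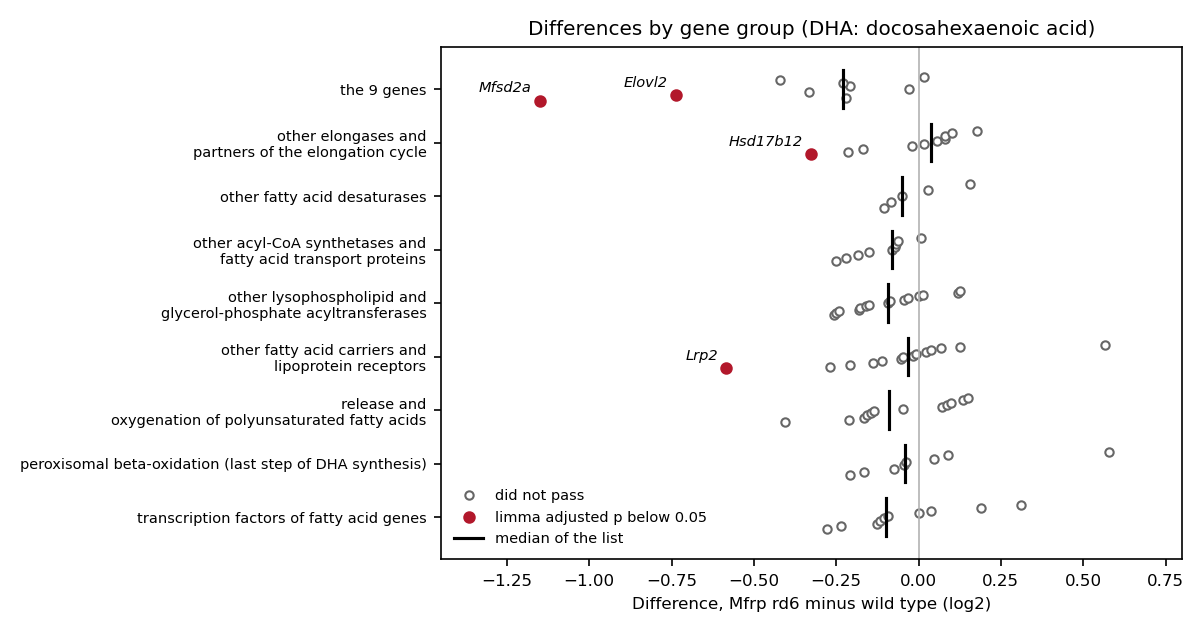
Log2 difference, Mfrp rd6 minus wild type (horizontal axis), of the 9 genes and of 8 lists of related genes (rows); filled points passed limma at an adjusted p below 0.05, open points did not, and the vertical bar is the list's median. Mfsd2a (-1.15) and Elovl2 (-0.74) stand left of all other points. The medians of the 8 related lists lie between -0.10 and 0.04, and that of the 9 genes is -0.23.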

How the data were processed

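RNA of 7 RPE samples was labelled and hybridised to Affymetrix whole-transcript arrays. The authors deposited 1 table of log2 values made with Expression Console and RMA, per the submitters' processing notes. The sources used here do not give versions. Of 35556 probe sets, 21789 carried 1 gene symbol in the platform annotation, 1621 several and 12146 none. The brightest 1-symbol probe set stood for each gene. The 19938 genes were fitted with limma 3.58.1 (lmFit, eBayes, R 4.3.3) with no filter, covariate or block, with 5 residual and 4.56 prior degrees of freedom, and p-values were adjusted by Benjamini-Hochberg over all genes. The procedure was tested on simulated data. Figures and sequences were handled with Python 3.11.15, pandas 2.3.3 and matplotlib 3.10.9.

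The 9 genes, the related lists and the marker lists were chosen with earlier results of these data known. Named were all 9 genes, list genes past the threshold (otherwise the 2 brightest) and the 5 nearest to Mfsd2a; endothelial, muscle and other marker genes were named after their values were seen. Of the listed genes, 7 related and 8 marker entries had no 1-symbol probe set and were not analysed here. Adipocyte, Schwann cell, Müller glia and melanocyte or fibroblast marker means differed by -0.18 to -0.02, and of these markers the fibroblast gene Dcn passed (-0.92, limma adjusted p = 0.014). Replicate numbers are shared between groups, but deviations of equal numbers correlated at -0.30, -0.07 and 0.04. These values gave no sign that the numbers pair the samples, though so few arrays cannot exclude it. Precision is limited by how few arrays there were, with a median SE over genes of 0.09.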

Additional observations from a re-analysis of the deposited data

Results flagged for a closer look

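Of 23 genes whose 4 wild-type values were checked, 2 had 1 array apart from the rest by Dixon's criterion, which chance meets in about 1 in 20 such groups. For Degs1 the gap of wild-type replicate 3 (12.01) to the next array (11.83) was 0.9 of the range of the group, and for Scap that of wild-type replicate 3 (10.88) to the next (10.73) was 0.882. None of the 9 genes met the criterion.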

How the results depend on the processing

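Mfsd2a kept its direction and passed in all 17 alternatives. Elovl2 passed in 14, with -0.74 when all probe sets were tested (limma adjusted p = 0.0791) and -0.85 to -0.64 when 1 array was left out. The number of the 9 genes past the threshold was 4 with a variance trend and robust moderation, where Fads2 (-0.23) and Acsl6 (-0.42) were added, and 1 with all probe sets; it was 1 to 2 when 1 array was left out. Acsl6 (-0.42) also passed with either filter on dim genes. The count over all genes was 718 with the variance trend, 679 with array weights, 167 with all probe sets, 225 with the replicate block (in which wild-type replicate 4 adds nothing), 193 with Mfrp rd6 replicate 2 and wild-type replicate 3 both left out, and 211 to 325 when 1 array was left out, against 429. It moved by over 1.5 times without Mfrp rd6 replicate 1 (211) or 2 (243) or wild-type replicate 1 (279), 2 (266) or 4 (269). Above the median level 214 genes were higher and 302 lower, against 267 and 162. Of the 429 genes, 201 were among the 211 called without Mfrp rd6 replicate 1. Related genes past the threshold numbered 1 after quantile normalization, 4 above the median level, 5 with the variance trend, 4 with array weights (2 higher and 2 lower), 0 with all probe sets, 0 with the replicate block, 0 without the 2 arrays together, and 0 to 1 when 1 array was left out (1 higher and 0 lower without Mfrp rd6 replicate 3), against 2, both lower. No Mfrp rd6 sample correlated best with the wild-type sample of its number, and the replicate block changed no call among the 9 genes. The sign turned for genes near 0. Leaving out 1 array gave -0.055 to 0.005 for Elovl5, -0.035 to 0.06 for Agpat3, -0.037 to 0.067 for Slc27a1, -0.068 to 0.022 for Lpcat4, -0.087 to 0.00333 for Hsd17b4, -0.25 to 0.09 for Insig1 and -0.033 to 0.04 for Scap. Without the 2 arrays together Elovl5 was 0.012, Lpcat4 0.025 and Insig1 0.153. With arrays centred on their medians Slc27a1 was -0.00833 and Scap -0.015, and with the replicate block they were -0.00333 and -0.01. Some alternatives held fewer genes or arrays, while the use of all probe sets raised the number tested. The cause of the changes in calls, counts and signs was not tested.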
